A study of Homo sapiens with 4 samples.

Results

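Structured small non-coding RNAs are short transcripts that fold into defined shapes and work inside RNA-protein particles. The 8 genes described here are SNORD3B-1, RNVU1-18, RNU12, SNORD116-19, RN7SK, SNORA74B, TERC and RMRP, of 23485 genes tested. They were chosen by the values of the comparison itself, the rise in AEG-1 knockdown cells and the spread between arrays, so their ratios below are a description with no test. Nothing is supported with them.

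RNA from SB cells and from SCt cells was hybridized together on each of 4 two-color Agilent human arrays. SB cells are SAS cells, a line from a tongue squamous cell carcinoma, that stably carry the pLKO.1-LYRIC shRNA-B vector against AEG-1, also named LYRIC or MTDH. SCt cells are control SAS cells, described in the labels as holding the pLKO.1 vector and in the methods of the study as holding a scrambled shRNA. Both lines are stable clones that were grown for 14 days in puromycin at 2 μg/ml, and 15 μg of total RNA was labelled per cell line. The labels call the arrays biological replicates. Whether each array stands for a separate culture was not established, so SDs and p-values measure the spread between these arrays, which may be technical. On all 4 arrays SB RNA was labelled red and SCt RNA green, and 0 arrays had the dyes swapped, so dye and cell line cannot be told apart in any single value. In bulk RNA, a change in the cells that hold an RNA and a change in its amount per cell cannot be told apart either. AEG-1 itself, the target of the shRNA, had log2 ratios of SB over SCt cells of −3.18, −3.01, −3.12 and −3.41 on arrays 1 to 4, a mean of −3.18 ± 0.17 (SD, n = 4) a 9.07-fold lower level, with an adjusted p of 5.22e-10 from limma.

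All 8 markers of squamous carcinoma cells that were examined, among them KRT5, KRT14 and TP63, gave a signal well over background on every array, in red as in green. The same held for 7 of 8 markers of other cells, PTPRC and CD3E among them, and COL3A1 was the exception, so this measure did not separate both kinds of marker on these arrays. None of the 8 squamous markers and none of the 7 tested markers of other cells was past an adjusted p of 0.05 in limma (4 and 0 genes had an unadjusted p under 0.05, beside 18.1% of all genes, and an unmoderated test of each probe with the same adjustment called 0). That unmoderated test called 0 of all 28507 probes, AEG-1 itself among those it missed, so its counts of 0 say nothing about single genes. In limma, 1.26% of all genes tested were called higher and 2.26% lower.

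These RNAs belong to different machines. Small nucleolar RNAs of the box C/D class (SNORD genes) and the box H/ACA class (SNORA genes) mostly guide chemical modification of other RNAs, and the U3 RNA made from SNORD3 genes is needed for early cleavage of the ribosomal RNA precursor. The U1 and U12 small nuclear RNAs act in the major and the minor spliceosome. RN7SK, the 7SK RNA, holds the transcription elongation factor P-TEFb in an inactive complex, TERC is the template RNA of telomerase, and RMRP is the RNA of the RNase MRP enzyme. Their mature forms carry no poly(A) tail, and the primer used for reverse transcription on these arrays is not given in the sources used here. In the RefSeq table (GRCh38.p14) the 8 genes lie on different chromosomes, namely 17, 1, 22, 15, 6, 5, 3 and 9 in the order given above. Their lengths run from 94 bases for SNORD116-19 to 451 bases for TERC.

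The 8 genes were read by 9 probes, 2 of them for SNORD3B-1, each spotted once per array. All 9 passed the filter on dim probes, with signal well over background in red and in green on every array. The mean log2 ratio lay above 0 for all 8 genes, from 0.14 for RMRP to 2.27 for SNORD3B-1, with a median of 0.61, whereas the median over all genes tested was 0.01. Of the 9 probes, 5 were above 0 on all 4 arrays, as were 14.2% of all probes with a value on every array. Since the members were chosen for their rise, nothing is read from that count.

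U3 RNA gave the highest ratio. At the brighter of its probes (A_33_P3252333), SNORD3B-1 had log2 ratios of 3.14, 2.07, 2.31 and 1.54 on arrays 1 to 4. Array 1 was highest and array 4 lowest, and every array was above 0. The mean was 2.27 ± 0.67 (SD, n = 4), a 4.81-fold higher level in SB cells. The other probe of the gene (A_33_P3226542) did not show a rise of this size. It had 0.59, 0.07, 1.02 and −0.38, a mean of 0.32 ± 0.61, with array 4 below 0, and the mean was 0.09 without array 3 and 0.56 without array 4. The brighter probe exceeded the other on all 4 arrays, by 1.94 ± 0.52 on the log2 scale. The human genome holds several nearly identical U3 gene copies, and which of them each probe reads was not tested.

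Both spliceosomal RNAs followed. RNVU1-18, a variant U1 RNA gene, had log2 ratios of 1.88, 1.39, 2.99 and 0.11, with a mean of 1.59 ± 1.19 (SD, n = 4). Its arrays ranged from near equality on array 4 to a 7.93-fold higher level on array 3. Without array 3 the mean was 1.13 and without array 4 it was 2.09. RNU12, the U12 RNA that recognises the branch point of minor introns, had 2.35, 1.52, 0.98 and 0.87, a mean of 1.43 ± 0.68. Here array 1 was highest, and arrays 3 and 4 lay close together.

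SNORD116-19 is one copy of the SNORD116 cluster in the imprinted region that is lost in Prader-Willi syndrome. Its log2 ratios were 0.70, 0.80, 0.87 and 0.64, with a mean of 0.75 ± 0.10 (SD, n = 4). Of the 9 probes it varied least between arrays, and its SD lay near the median SD of 0.11 over all tested probes. The mean of SNORD116-19 depended on processing. It was 0.88 with the software ratios and with the deposited log2 ratios of the series, outside the mean ± SD given above. The median SD of the 9 probes was 0.66.

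RN7SK had log2 ratios of 0.80, 0.29, 1.23 and −0.41 and a mean of 0.48 ± 0.71 (SD, n = 4). Arrays 1 to 3 lay above 0 and array 4 below it. The mean was 0.23 without array 3 and 0.77 without array 4, and 0.82 with median centring in place of loess. SNORA74B, a box H/ACA RNA, showed the same order at a smaller size, with 0.40, 0.29, 0.58 and −0.40 and a mean of 0.22 ± 0.43, which was 0.10 without array 3 and 0.42 without array 4. RMRP had 0.23, 0.19, 0.86 and −0.73, a mean of 0.14 ± 0.66, and its mean turned to −0.10 without array 3 and was 0.43 without array 4. With median centring the mean of RMRP was 0.32. TERC had 0.02, 0.23, 0.43 and 0.04, a mean of 0.18 ± 0.19 that was 0.10 without array 3, and it was the only one of the 9 probes whose lowest value was not on array 4. For RN7SK, SNORA74B, TERC, RMRP and the dimmer SNORD3B-1 probe, the mean was no larger than the SD between arrays.

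**Figure D1:**
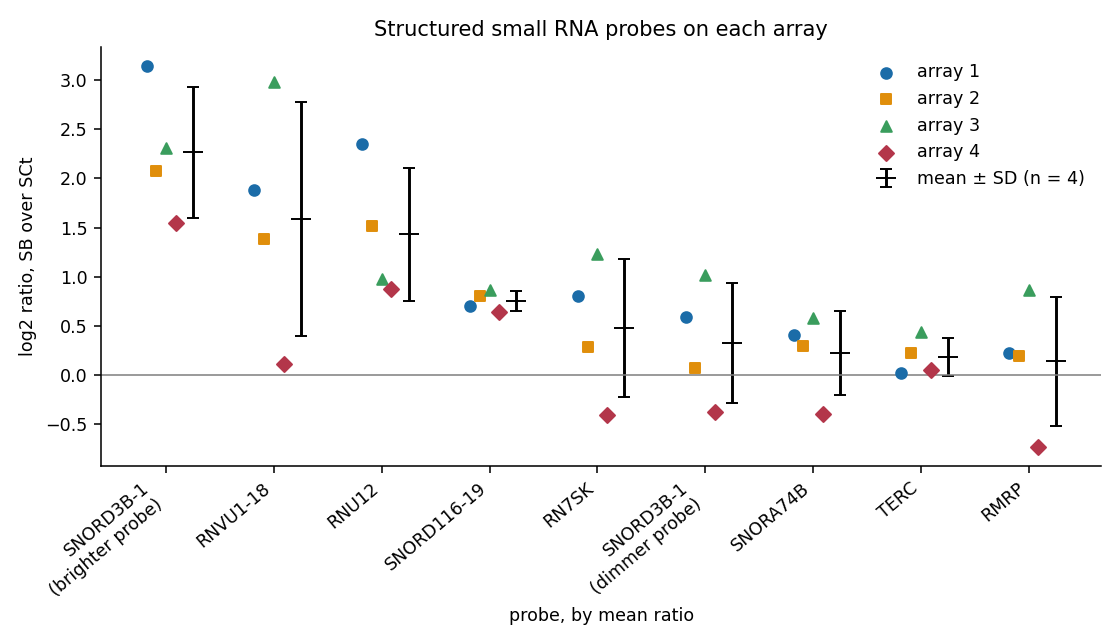
Log2 ratio of SB over SCt cells (vertical axis) for the 9 probes of the 8 genes, with 1 point per array and the mean ± SD over 4 arrays beside them. SNORD3B-1 at its brighter probe, RNVU1-18, RNU12, SNORD116-19 and TERC lie above 0 on every array, while array 4 lies below 0 for RN7SK, SNORA74B, RMRP and the dimmer SNORD3B-1 probe.

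The order of the mean ratios is given as a description only, and most neighbours in it did not differ beyond their spread. The brighter SNORD3B-1 probe exceeded RNVU1-18 by 0.68 ± 0.96 and on 3 of 4 arrays, and RNVU1-18 exceeded RNU12 by 0.16 ± 1.26 and on 1 of 4. RNU12 was above SNORD116-19 on 4 of 4 arrays, by 0.68 ± 0.70, and SNORD116-19 was above RN7SK on 2 of 4, by 0.28 ± 0.63. RN7SK exceeded the dimmer SNORD3B-1 probe by 0.15 ± 0.12 and on 3 of 4 arrays. From there down to SNORA74B, TERC and RMRP the steps were 0.10 ± 0.28, 0.04 ± 0.35 and 0.04 ± 0.52.

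For the brightest members the arrays differed mainly in the channel of the control cells. The fold range of the measured spot intensity over the arrays was larger in SCt than in SB cells for 5 of the 9 probes. For SNORD116-19 it was 1.40 in SCt and 1.52 in SB cells, for SNORA74B 1.58 and 1.83, for TERC 1.18 and 1.28, and for RMRP 1.76 and 2.08. For the brighter SNORD3B-1 probe, the measured spot intensity in SB cells was 183100, 258032, 237123 and 223722 on arrays 1 to 4, a 1.41-fold range. In SCt cells it was 8311, 31932, 24248 and 41753, a 5.02-fold range. The array with the highest ratio was thus the one with the lowest control signal. These intensities are not normalized. The median over all spots other than controls was also lowest on array 1 in SCt cells, with 362, 444, 588.5 and 400.75 on arrays 1 to 4. In SB cells that median was 733, 683, 875 and 655.

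RNVU1-18 showed the same split. Its intensity in SB cells was 275605, 304921, 279962 and 232966, a 1.31-fold range, and in SCt cells it was 28203, 58440, 18041 and 113442, a 6.29-fold range. For RNU12 the range was 1.26-fold in SB cells and 3.86-fold in SCt cells. For RN7SK it was 1.67-fold in SB cells and 2.26-fold in SCt cells, and the control signal was highest on array 4, at 39916, where the ratio was lowest.

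After loess within arrays and quantile scaling of the mean intensities between arrays (Aquantile), the SD between arrays was larger in the SCt channel than in the SB channel for 7 of the 9 probes, for 12 of the 25 related small RNAs described further on and for 61.2% of all probes. It was 0.88 against 0.25 on the log2 scale for the brighter SNORD3B-1 probe and 1.19 against 0.15 for RNVU1-18. The exceptions were SNORD116-19, with 0.11 in the SCt and 0.13 in the SB channel, and RMRP, with 0.32 and 0.37. As each cell line had one dye, a spread that belongs to the green channel and one that belongs to the SCt RNA cannot be told apart.

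**Figure D2:**
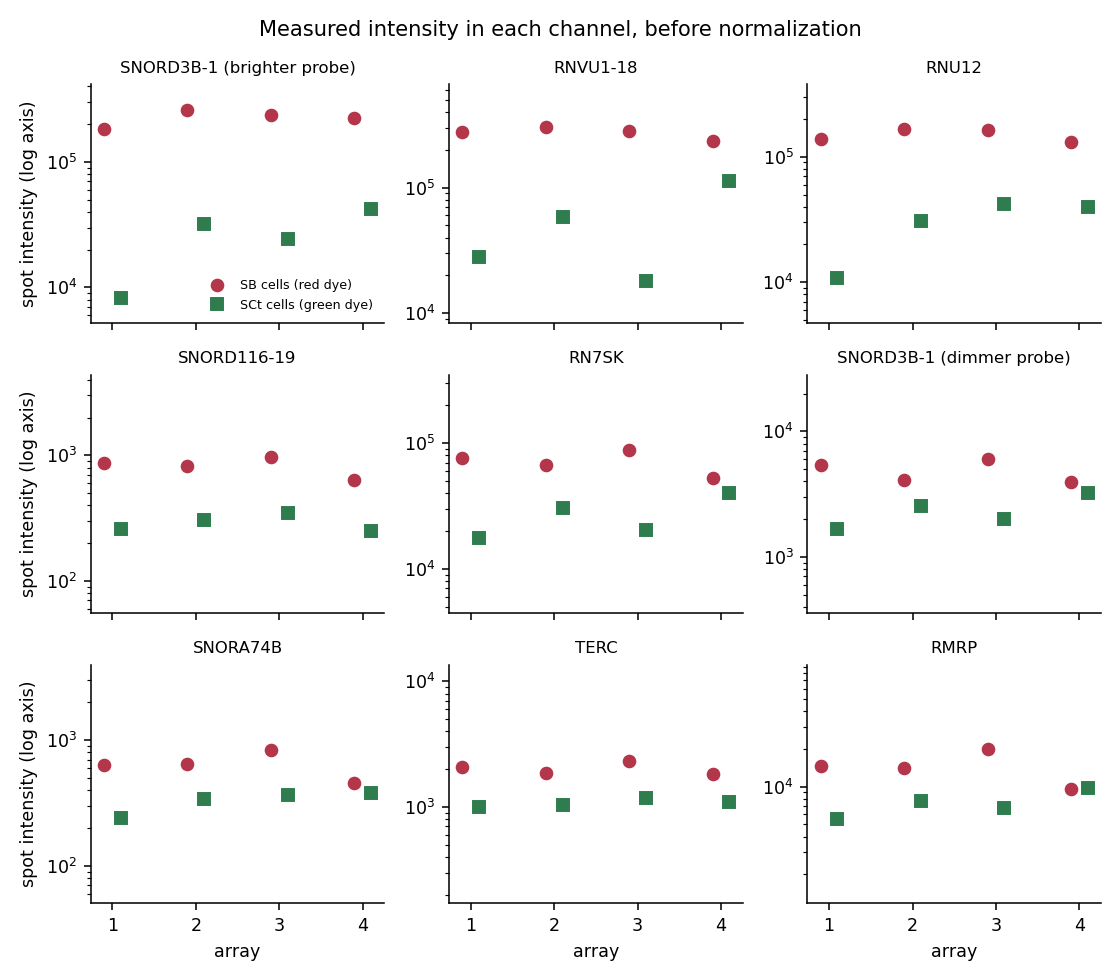
Spot intensity of each probe on a log axis against array number, in SB cells (red dye) and SCt cells (green dye), before background correction and normalization; all panels span the same ratio from bottom to top. For SNORD3B-1 at its brighter probe, RNVU1-18 and RNU12 the SCt points spread over a 5.02-fold, 6.29-fold and 3.86-fold range while the SB points stay within 1.41-fold.

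The brightest of these spots lie where few other probes do. The 124 other tested probes at least as bright as the brighter SNORD3B-1 probe had a median log2 ratio of 0.24, the 32 at least as bright as RNVU1-18 one of 0.35, and the 182 at least as bright as RNU12 one of 0.21. For RN7SK the 397 probes of that kind had a median of 0.15. For the weaker members the matching medians lay between 0.00 and 0.01. How far brightness bears on the ratios of the bright members was not tested.

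The array carried 26 other genes of the same RNA classes, named by their symbols, which the choice of members did not include. Of these, 25 were tested, and SNORD17 was not, since its spot had a usable value on only 1 array. In limma, 1 of the 25 was past an adjusted p of 0.05 and higher in SB cells, and 0 were lower, while 1.26% of all genes tested were higher and 2.26% lower. The called gene was SCARNA13, a small RNA of the Cajal body, the nuclear site where spliceosomal RNAs are modified. It had log2 ratios of 1.14, 0.88, 1.18 and 0.13, a mean of 0.83 ± 0.49 (SD, n = 4), with an adjusted p of 0.00654 from limma. It was above 0 on 4 of 4 arrays. Without array 3 no gene of the 25 was called, beside 204 of all 28462 probes. The mean of SCARNA13 was 0.71 there, with an adjusted p of 0.133 from limma. Without array 4, 7 of the 25 were called, all of them higher in SB cells: RNU105B, SCARNA1, SCARNA9, SCARNA10, SCARNA12, SCARNA13 and SCARNA16. Over all probes 1991 of 28501 were called without array 4, 859 of them higher. With median centring in place of loess, 6 of the 25 were called, of which 5 were higher and SNORA53, at −0.21, was lower. That setting called 8939 of all 28507 probes, 5599 of them higher. The unmoderated test gave 0 of the 25 after adjustment and 1 at an unadjusted p under 0.05, beside 3936 of all 28507 probes. In limma 3 of the 25 had an unadjusted p under 0.05, beside 18.1% of all genes tested.

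The 25 related RNAs had a median log2 ratio of 0.09, and 20 of them had a mean above 0, as did 55.4% of all genes tested. The median was 0.01 without array 3 and 0.16 without array 4. Among them the 12 SCARNA genes had a median of 0.15 and the 9 SNORA genes one of 0.04. SNORA74A, the nearest relative of SNORA74B by name, had 0.06 ± 0.22 (SD, n = 4) and was not called (limma, adjusted p = 0.739), and it was below 0 on 2 of 4 arrays.

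The values of the related RNAs differed between arrays. Their median log2 ratio was 0.18 on array 1, 0.04 on array 2, 0.31 on array 3 and −0.20 on array 4, whereas the medians of all genes lay between 0.00 and 0.02. On array 3, 24 of the 25 were above 0, and on array 4, 8 were. The lowest value of a gene was on array 4 for 19 of the 25, and for 27.7% of all genes. The highest was on array 3 for 17 of the 25, and for 31.4% of all genes. Both held for 13 of the 25, and for 10.1% of all genes. Low values on array 4 were also frequent on some lists of protein and host genes. Array 4 was lowest for 6 of 8 genes with a value on every array among the RNase MRP and RNase P proteins, 6 of 8 of the minor spliceosome, 7 of 10 U1 proteins and 10 of 18 snoRNA host genes. Over all 9 lists of partner proteins it was lowest for 52 of 127 genes and array 3 highest for 15. Among the 9 probes of the members, the lowest value was on array 4 for 8 and the highest on array 3 for 7. The other 2, SNORD3B-1 at its brighter probe and RNU12, were highest on array 1.

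The widest contrasts among the related RNAs were those of SCARNA10 and RNU105B. SCARNA10 had 0.54, 0.18, 0.86 and −0.79 on arrays 1 to 4, and RNU105B had 0.29, 0.26, 0.79 and −0.70. RPPH1, the RNA of RNase P, an enzyme that shares proteins with RNase MRP, had 0.24, 0.04, 0.39 and −0.49. Some related RNAs did not follow this order. SCARNA10, RNU105B, RPPH1 and SNORA81 were chosen for mention after their values were seen. SNORA81, with −0.07, −0.11, 0.10 and 0.25, was highest on array 4. Each array is a single measurement, so a difference between 2 arrays has no replicate check. RN7SL1, the RNA of the signal recognition particle, fell outside the symbols listed and was looked up after the values of the others were seen. It had 0.29, 0.09, 0.08 and −0.13, a mean of 0.08 ± 0.17 (limma, adjusted p = 0.573).

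**Figure D3:**
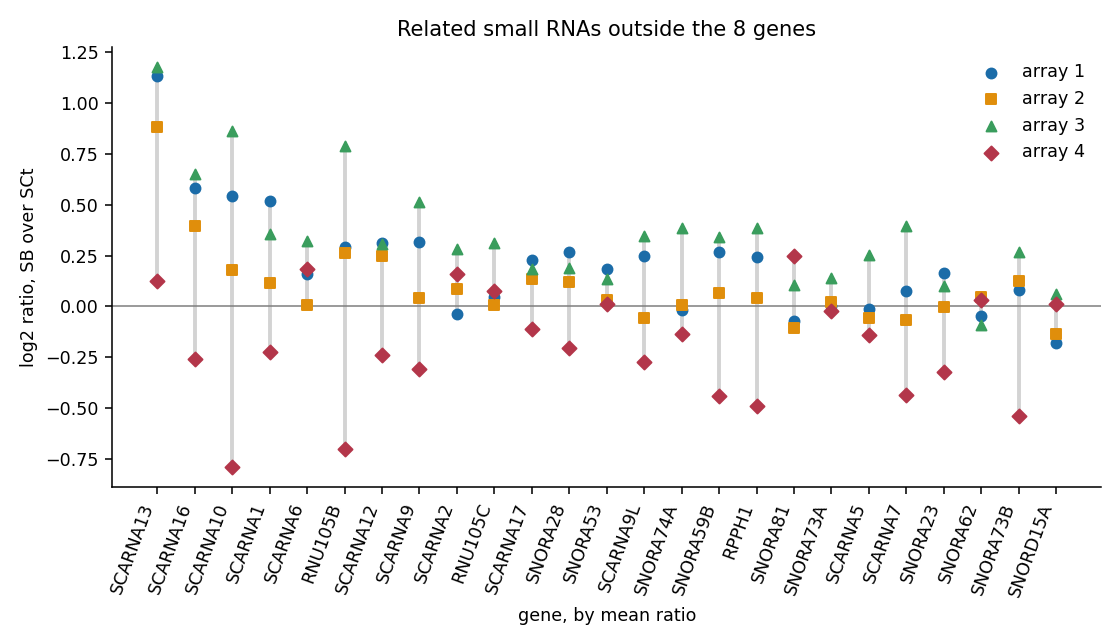
Log2 ratio of SB over SCt cells (vertical axis) of the 25 related small RNAs, sorted by their mean, with 1 point per array and a grey bar from the lowest to the highest array. Array 4 gives the lowest point for 19 of the 25 genes and array 3 the highest for 17.

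Histone genes that are switched on during DNA replication were also examined array by array. Their mRNAs end in a stem loop in place of a poly(A) tail, which is why they were listed beside the small RNAs. Of 64 such genes tested, 0 were past an adjusted p of 0.05 in limma, with its trend and robust options or with the unmoderated test after adjustment, and 2 had an unadjusted p under 0.05 in limma. Of all genes tested, 1.26% were called higher and 2.26% lower in limma, and 18.1% had an unadjusted p under 0.05. The median log2 ratio of the histone genes over the arrays was 0.02. By array, the median was 0.05, −0.01, 0.35 and −0.33 on arrays 1 to 4. Array 4 was lowest for 59 of the 63 histone genes with a value on every array and array 3 highest for 59, and both held for 55. The ratio was higher on array 3 than on array 4 for 63 of 63 histone genes, for 23 of 25 related small RNAs and for 53.7% of all genes. Whether the array pattern of the histone genes and that of the small RNAs have one source was not tested.

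Ribosomal RNA also lacks a poly(A) tail. Its 6 probes, 4 of them for the 28S RNA, all had an adjusted p under 0.05 in limma and a higher level in SB cells, beside 3.70% of all probes called in either direction. With the unmoderated test 0 of them passed after adjustment, as for every other probe. They had means from 0.61 to 1.13 and no single value under 0.46. The probe of the 18S RNA (RNA18SN5) had 0.91, 0.74, 1.07 and 0.86, and that of the smaller RNA5-8SN5 had 1.37, 1.39, 0.63 and 0.80. The 4 probes of the 28S RNA (RNA28SN5) had means of 0.87 ± 0.22, 1.13 ± 0.19, 0.89 ± 0.34 and 0.61 ± 0.14 (SD, n = 4). By array, the median of the 6 probes was 0.76, 0.74, 1.08 and 0.94. Array 3 was highest for 5 of the 6, beside 31.4% of all genes, but counted by RNA, with the brightest probe of each, for 2 of 3, and RNA5-8SN5 was lowest there. Array 4 was lowest for 0 of the 6, beside 27.7% of all genes. The median of the 6 means was 0.89, and it was 1.42 with median centring in place of loess and 0.67 with the software ratios. As for every value here, dye and cell line cannot be told apart in these ratios.

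**Figure D4:**
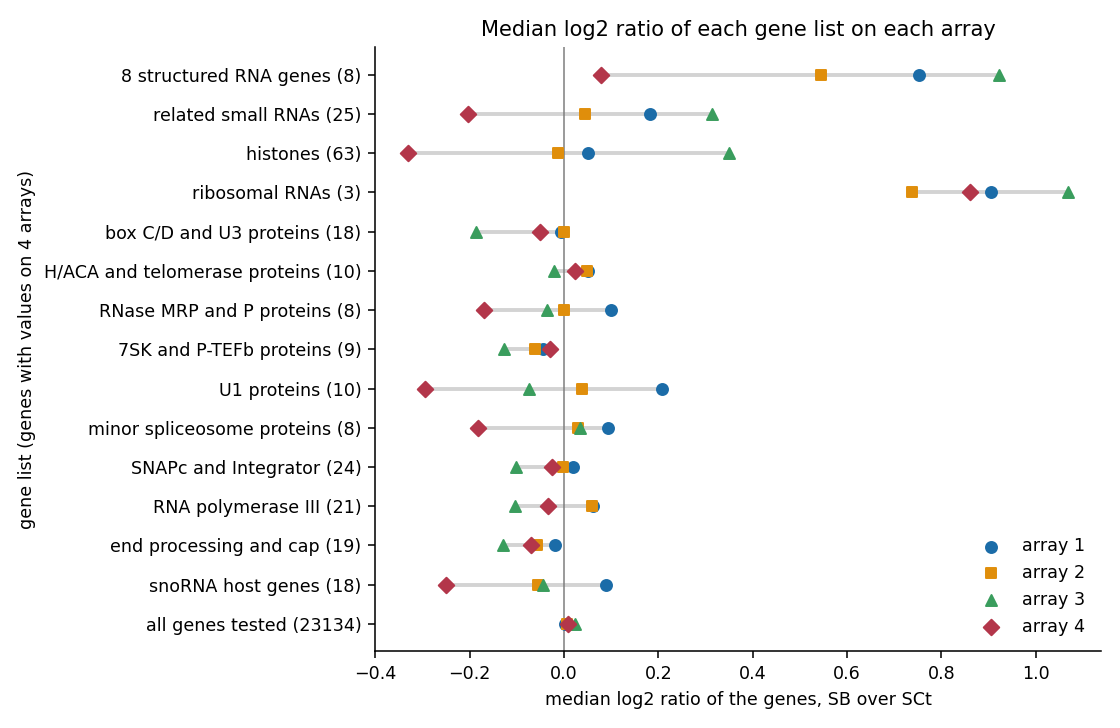
Median log2 ratio of SB over SCt cells (horizontal axis) of each gene list on each of the 4 arrays, with the number of genes that have a value on every array in brackets. The 8 structured RNA genes, the related small RNAs and the histones have their highest median on array 3 and their lowest on array 4, while the lowest median is also on array 4 for the U1, RNase MRP and RNase P, minor spliceosome and snoRNA host lists, with their highest on array 1.

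Genes for proteins that bind, make or process these RNAs were examined on 9 lists. Of 134 such genes 132 were tested, and 0 were higher and 1 was lower in SB cells past an adjusted p of 0.05 in limma, beside 1.26% higher and 2.26% lower of all genes tested. At an unadjusted p under 0.05 there were 24 of the 132, as were 18.1% of all genes tested, and the median log2 ratio of the 132 was −0.03. The called gene was INTS14, a subunit of the Integrator complex, which cleaves the ends of newly made spliceosomal RNAs. It had −0.42, −0.38, −0.66 and −0.36 on arrays 1 to 4, a mean of −0.45 ± 0.14 (SD, n = 4; limma, adjusted p = 0.00276), and was below 0 on 4 of 4 arrays. Without array 2 there were 2 called genes, BRF1 and INTS14, and without array 4 there were 4, with BDP1 and WDR36 in addition. Over all probes, 427 of 28825 were called without array 2 and 1991 of 28501 without array 4. With median centring in place of loess, 25 of the 132 genes were called, of which 24 were higher in SB cells. That setting called 8939 of all 28507 probes, 5599 of them higher.

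For the partners of U3 and other box C/D RNAs, 0 of 18 genes were called in limma and 7 had an unadjusted p under 0.05, beside 18.1% of all genes, with a median of −0.08. FBL, the methyltransferase of these particles, had a log2 ratio of −0.06 ± 0.16, NOP56 −0.14 ± 0.13, NOP58 −0.25 ± 0.26 and the U3 protein RRP9 0.00 ± 0.19 (SD, n = 4 each). NOP58 had values of 0.06, −0.16, −0.33 and −0.55, and its mean was below its SD. Of the 18 snoRNA host genes tested, whose introns hold small nucleolar RNAs, 0 were called in limma and 5 had an unadjusted p under 0.05, with a median of −0.07. Over all genes tested, 1.26% were called higher and 2.26% lower in limma.

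The core box H/ACA proteins DKC1, NHP2, NOP10 and GAR1 bind RNAs of the SNORA class and TERC alike. On the list of these and other box H/ACA and telomerase proteins, 0 of 10 genes were called in limma and 0 had an unadjusted p under 0.05. Among all genes tested, limma called 1.26% higher and 2.26% lower, and 18.1% had an unadjusted p under 0.05. DKC1, the pseudouridine synthase, had 0.00 ± 0.15, NHP2 −0.02 ± 0.24, NOP10 −0.01 ± 0.26 and GAR1 0.00 ± 0.18. TERT, the protein subunit that copies the TERC template, had −0.05 ± 0.08 (SD, n = 4 each). None of these means exceeded the spread between arrays. For RNase MRP and RNase P, which share their proteins, 0 of 10 genes were called in limma and 1 had an unadjusted p under 0.05, beside the same shares of all genes. POP1 had −0.09 ± 0.09 (SD, n = 4), and RPP30 had 0.00 ± 0.08 from 3 arrays, its spot on array 3 having been left out as an outlier.

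Among the 7SK and P-TEFb genes, 0 of 9 were called in limma, beside 1.26% higher and 2.26% lower of all genes tested. At an unadjusted p under 0.05 in limma there were 3 of the 9, beside 18.1% of all genes. The median of the 9 was −0.05. LARP7, which protects the end of 7SK RNA, had −0.04, −0.13, −0.15 and −0.59, with array 4 lowest, and a mean of −0.23 ± 0.25 (SD, n = 4). HEXIM1, the inhibitor that 7SK RNA activates, had −0.12 ± 0.07, the capping enzyme MEPCE −0.03 ± 0.16 and the kinase CDK9 −0.04 ± 0.07 (SD, n = 4 each). The adjusted p in limma was 0.156 for LARP7 and 0.265 for HEXIM1.

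Of the U1 proteins 0 of 10 were called in limma, and 0 had an unadjusted p under 0.05. For this list and the next, the shares over all genes tested were 1.26% called higher and 2.26% lower in limma. The share at an unadjusted p under 0.05 was 18.1%. SNRNP70 had 0.02 ± 0.09, SNRPA −0.09 ± 0.13 and SNRPC 0.02 ± 0.23 (SD, n = 4 each), and SNRNP70 was called higher with median centring (0.28; limma, adjusted p = 0.00977). The median of the 10 genes moved from 0.21 on array 1 to −0.29 on array 4. For the minor spliceosome, in which U12 works, 0 of 9 tested genes were called in limma and 2 had an unadjusted p under 0.05, and RNPC3, which binds U12 RNA, had 0.03 ± 0.17 (SD, n = 4). SCNM1 of that list was not tested.

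The lists of genes that make and trim small RNAs came last. The transcription list of SNAPc and Integrator held INTS14 and no other called gene among 25 (limma; 4 at an unadjusted p under 0.05). RNA polymerase III, which transcribes RN7SK and RMRP, had 0 called of 22 genes in limma, 4 at an unadjusted p under 0.05 and a median of 0.00. The end processing and cap list had 0 called of 19 tested genes in limma, 3 at an unadjusted p under 0.05 and a median of −0.04. Beside these lists, limma called 1.26% of all genes tested higher and 2.26% lower, and 18.1% had an unadjusted p under 0.05. With the trend and robust options of eBayes, INTS14 was the one called gene of the 9 lists. With the unmoderated test there were 0 called genes after adjustment and 15 at an unadjusted p under 0.05, beside 3936 of all 28507 probes.

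The genes next to the members in the RefSeq table were examined as a readout that the choice did not use. Only 2 members lie within another gene there. SNORA74B overlaps ATP6V0E1, a subunit of a proton pump, which had a log2 ratio of 0.09 ± 0.12 (SD, n = 4; limma, adjusted p = 0.448). SNORD116-19 overlaps the long RNA SNHG14, which had no named probe here. Counting overlaps and the nearest gene on each side, there were 18 neighbours, of which 9 were tested and 2 called in limma, both lower in SB cells, while 1.26% of all genes tested were higher and 2.26% lower. CILK1, beside RN7SK, had −0.15, −0.22, −0.40 and −0.25, a mean of −0.25 ± 0.11 (SD, n = 4; limma, adjusted p = 0.0388). CREBRF, beside SNORA74B, had −0.41, −0.23, −0.14 and −0.22, a mean of −0.25 ± 0.11 (SD, n = 4; limma, adjusted p = 0.0432). Both were below 0 on 4 of 4 arrays, and neither was called without array 1, without array 2 or without array 3, where the count was 0. Their means in these 3 fits were −0.29, −0.27 and −0.21 for CILK1 and −0.20, −0.26 and −0.29 for CREBRF. With all arrays kept, the trend and robust options of eBayes ended both calls. The software ratios and the series table ended the call of CILK1, at a mean of −0.33 in both (limma, adjusted p = 0.0508 and 0.0572). Keeping outlier spots ended the call of CREBRF, at a mean of −0.25 (limma, adjusted p = 0.0508).

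The other neighbours tested were not called. GSTA4, on the other side of RN7SK, had 0.10 ± 0.13, and GRAP beside SNORD3B-1 had 0.07 ± 0.04. POLDIP3 and CYB5R3, on either side of RNU12, had −0.11 ± 0.06 and 0.02 ± 0.11. ACTRT3 beside TERC had 0.06 ± 0.05 and CCDC107 beside RMRP 0.03 ± 0.07 (SD, n = 4 each). The pump gene ATP6V0E1, CYB5R3 and GRAP were called higher with median centring in place of loess, at 0.26, 0.24 and 0.23. That setting called 8939 of all 28507 probes, 5599 of them higher.

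The genes whose 4 values lay nearest to the median profile of the members, which was 0.75, 0.55, 0.92 and 0.08 on arrays 1 to 4, were protein-coding apart from 1 without a RefSeq name. Nearness was measured as the Euclidean distance on the log2 scale over 4 arrays. S100A9, a calcium-binding protein of squamous and myeloid cells, was nearest at a distance of 0.22, with 0.63, 0.71, 1.00 and 0.08. The unnamed probe A_33_P3336557 followed at 0.40, MGP, an inhibitor of calcification, at 0.43, the transporter SLC6A12 at 0.44 and the RNA-binding protein CELF2 at 0.46.

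Over the whole array, 1055 of 28507 probes (3.70%) had an adjusted p under 0.05 in limma, 376 higher and 679 lower in SB cells. This count depends on single arrays. It was 640 without array 1, 427 without array 2, 204 without array 3 and 1991 without array 4. With median centring in place of loess, 8939 probes were called, 5599 of them higher.

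**Figure D5:**
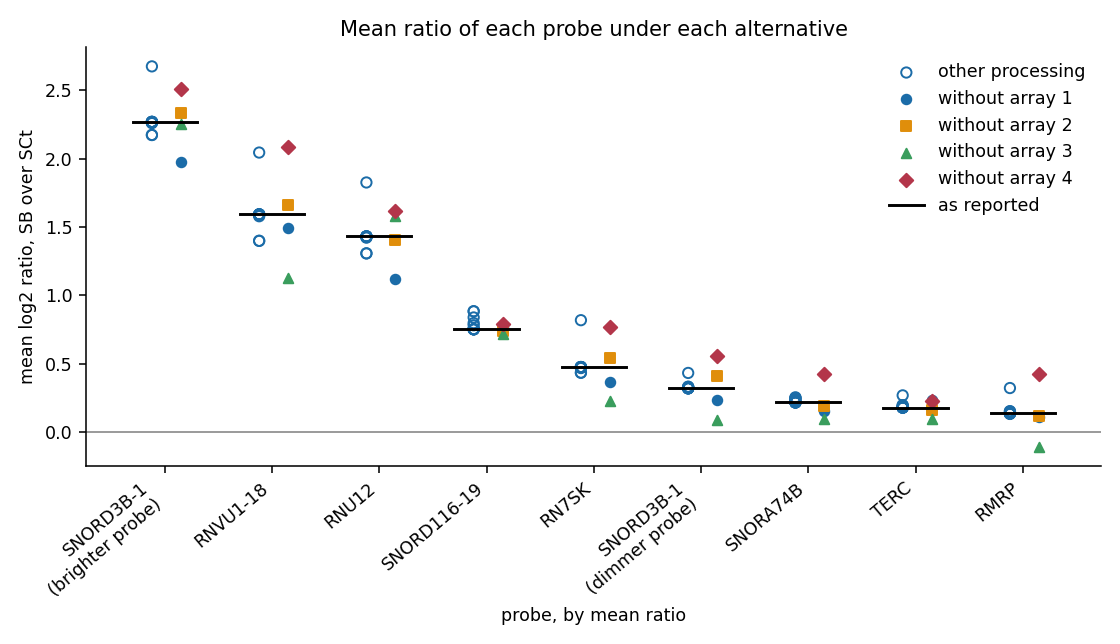
Mean log2 ratio of SB over SCt cells (vertical axis) of each of the 9 probes as reported (black line), under other processing of the 4 arrays (open circles) and without each array in turn (filled points). Every mean lies above 0 except that of RMRP without array 3, at −0.10, and the widest range is that of RNVU1-18 from 1.13 to 2.09.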

How the data were processed

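For each of 4 arrays the authors deposited the output of Agilent Feature Extraction 10.5.1.1, with median red and green spot intensity and local background intensity on a linear scale, not normalized, and the software's own dye-normalized red over green ratio on a log10 scale. A deposited table of the series holds log2 ratios of SB over SCt, and between 97.6% and 97.9% of its values on an array matched, within 0.001, the ratio of the processed signals of the software after averaging spots. Its column medians were −0.02, 0.02, 0.01 and 0.01.

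The limma package (3.58.1) in R 4.3.3 was used for processing and testing, and values were summarised in Python 3.11.15 with pandas 2.3.3. Local background was removed with the normexp method and 50 was added as offset, using all 44495 spots, which makes the ratios of weak spots smaller. Control spots and spots marked as outliers (814 to 1168 per array) were left out, no spot was saturated, and ratios were normalized by loess within arrays. Spots of a probe were averaged. Of 34127 probes, 28507 were kept, which had at least 2 values and, in red or in green, signal well over background on every array. Their mean log2 ratio was tested against 0 with lmFit and eBayes and the p-values of all of them were adjusted by the Benjamini-Hochberg method. The number of arrays limits the precision. All arrays lie on 1 slide read in 1 scan.

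Probes were named through RefSeq accessions without versions (GRCh38.p14); 24826 of 34127 matched, and the others kept the identifier of the file. The brightest kept probe stood for a gene. Probe sequences were not used here, and 0 of the 8 members had an entry in the promoter table.

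The members and lists were chosen with earlier results of these data known. Genes named are the members, MTDH, called related RNAs, called genes and direct partners of each list, ribosomal RNA probes, neighbours and the 5 nearest profiles; others were chosen after their values were seen. Counts of genes lowest on array 4 and of called neighbours were added to the alternatives after seeing the data. The steps were tested on simulated arrays. Alternatives covered background, normalization, the software ratios, the series table, filter, outliers, test, the probe per gene and each array left out.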

Additional observations from a re-analysis of the deposited data

Results flagged for a closer look

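SCARNA12 (A_33_P3224307) drew attention through array 4, where its log2 ratio was −0.24. On arrays 1 to 3 it was 0.31, 0.25 and 0.31. The distance from array 4 to the nearest other value made up 0.883 of the distance between its extremes. Among 70 probes and genes looked at in this way it was the only 1, and chance alone would mark about 5%.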

How the results depend on the processing

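The median log2 ratio of the member genes was 0.61 and lay between 0.61 and 0.81 under the alternatives that keep all arrays, and between 0.47 and 0.78 with each array left out. All 9 member probes had a mean above 0 under every alternative, except RMRP without replicate 3 (−0.10). The counts of other structured RNAs with the lowest ratio on array 4 and of histone genes with the lowest ratio on array 4 stayed within 18 to 19 and 58 to 60 under the alternatives that keep all arrays. SCARNA13 stayed past an adjusted p of 0.05 in 13 of 15 alternatives, INTS14 in 14, CILK1 in 8 and CREBRF in 9.

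With median centring in place of loess, 8939 probes, 6 other structured RNAs, 25 protein partner genes and 5 neighbours were called in place of 1055, 1, 1 and 2, the ribosomal RNA median was 1.42 in place of 0.89, and SNORA53 turned from 0.09, not called, to −0.21, called lower. The software ratios and the series table gave a ribosomal RNA median of 0.67 and 1 called neighbour each, and 698 probes were called from the series table. With outlier spots kept, 1 neighbour was called. EBayes with trend and robust options called 579 probes and 0 neighbours. A t-test of each probe, with the same adjustment, called 0 probes and so missed MTDH too (3936 were under an unadjusted p of 0.05, the threshold the methods name), 0 other structured RNAs, 0 protein partner genes and 0 neighbours. The cause of these changes was not tested.

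Leaving out 1 array at a time gave probes called numbering from 204 to 1991, the other structured RNAs from 0 to 7, the protein partner genes from 1 to 4 and the neighbours from 0 to 2. The ribosomal RNA median ranged from 0.81 to 0.95. Signal over background limited none of the 9 member probes.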
